A study of Homo sapiens with 12 samples.

Results

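PEG10 (paternally expressed gene 10) was overexpressed in HEK293 cells, a human embryonic kidney line, as 1 of 3 constructs, and the RNA was compared with that of cells given a control plasmid. The comparison described here sets the mean of all 3 PEG10 constructs against control, and asks which genes other than *PEG10* moved in one direction whichever construct was used. All 12 libraries of the series enter it: 9 PEG10 libraries, 3 each for gag-pol (the full-length protein, called FL in the sample names), gag (RF1) and nucleocapsid (NC), and 3 control libraries. Members were chosen by construct alone, and the genes followed are the 17175 other than *PEG10* that had enough counts to be tested.

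All 12 libraries came from one wild-type line, HEK293, after a single transfection with a plasmid built on a CMV promoter, so a constitutive viral promoter drove each insert. The control plasmid encoded HA-tagged LifeAct-Dendra2, a photoconvertible fluorescent protein fused to a short peptide that binds filamentous actin, and no untransfected cells were analysed here. That is the name the labels give it, while the methods of the study call the control of their pathway analysis pCDNA. The study's list of resources gives a pCDNA vector for its LifeAct construct, but does not say whether both names mean one plasmid. A gene that is lower with PEG10 and a gene that is higher with LifeAct-Dendra2 therefore cannot be told apart in any result below. The labels number the libraries of each group from 1 to 3 without a date, and although the methods of the study name the harvest date as a variable, they do not tie it to these numbers. In bulk RNA, fewer cells with a change and a smaller change in every cell cannot be told apart either.

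*PEG10* is a domesticated retrotransposon of the Ty3/Gypsy lineage and an imprinted gene that the placenta needs. It encodes gag, a capsid-like protein, and, after a programmed ribosomal frameshift, gag-pol, which adds an aspartic protease. At the end of gag lies the nucleocapsid, which holds a CCHC zinc finger of the kind that retroviral nucleocapsids use to bind nucleic acids. The stretch below is shown because it is the coding sequence that all 3 constructs share. It encodes amino acids 260 to 325 of gag, lies within an exon (chr7:94664334-94664531 in GRCh38, forward strand, 198 bases), and has the 42 bases of the zinc finger, amino acids 295 to 308, in capitals.
PEG10 nucleocapsid: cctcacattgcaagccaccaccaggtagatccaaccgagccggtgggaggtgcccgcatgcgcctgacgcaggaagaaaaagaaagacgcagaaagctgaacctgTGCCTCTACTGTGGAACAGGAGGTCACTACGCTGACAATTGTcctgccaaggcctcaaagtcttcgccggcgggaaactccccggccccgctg

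Depth was 30625725 to 45316749 gene counts per library. *PEG10* itself took 0.0230% to 0.0346% of the counts in control. Its share was 2.80% to 7.35% in gag-pol libraries, 3.78% to 6.10% in gag libraries and 0.238% to 0.389% in NC libraries, so each PEG10 library held more than any control library. The inserts differ in length, with 198 coding bases in NC, so these shares do not compare transcript numbers between constructs. Same-numbered libraries resembled each other, and the replicate number was kept in the fit as a block. Genes known from HEK293 cells had a summed level of 954 to 1160 CPM (counts scaled to library size) in control and 1010 to 1440 with PEG10, and of 17 markers of other cell types, 10 stayed under 1 CPM in all libraries. Of the 10 HEK293 genes *NEFL* was called higher, at 85.8 to 193 CPM in control and 90.2 to 305 with PEG10. Among the 17 markers, *MYH7* reached 19.6 CPM with PEG10, against at most 0.265 in control. Those 17 markers summed to 33.4 to 76.5 CPM in control and 21 to 53.1 CPM with PEG10, and 3 of the 8 that were tested, *ALB*, *CD14* and *COL3A1*, were called lower; their part in the results was not tested.

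Across the 3 constructs, 615 genes were higher than in control (3.58% of those tested) and 717 were lower (4.17%), or 1332 in all (7.76%), at an adjusted p-value under 0.05. Adjusted p-values throughout are those of edgeR's quasi-likelihood test, corrected over all genes by the method of Benjamini and Hochberg. Of these, 572 higher genes (3.33%) and 693 lower genes (4.03%) had the same sign with gag-pol, gag and NC taken separately, which the mean of 3 contrasts with the same control libraries favours. The changes were mostly small: the median log2 fold change was 0.33 among the 572 and -0.37 among the 693, against 0.00382 over all genes, and 11 higher and 73 lower genes reached an absolute value of 1. Within replicate numbers, 384 of the 572 were above control in 9 of 9 pairings and 462 of the 693 below it in 9 of 9, while 875 and 931 of all genes did so.

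Agreement in sign did not mean a call with each construct. The contrasts of gag-pol and NC called 1941 (11.3%) and 1921 genes (11.2%), and that of gag 185 (1.08%). Among the 572 higher genes, the gag-pol contrast called 479, the NC contrast 380 and the gag contrast 75, and among the 693 lower genes these numbers were 595, 477 and 56. With all 3 constructs separately, 20 genes were called higher (0.116%) and 36 lower (0.21%), and these 56 genes are the ones described most closely below. Another 43 of the 1265 genes were called with none of the 3 constructs by itself and passed only as a mean.

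Among the genes that rose with every construct were *TXNIP* and *ARRDC4*, a pair of arrestin-domain proteins that restrain glucose uptake and whose genes are switched on by the glucose-sensing factors MondoA and ChREBP. *TXNIP*, on the reverse strand of chromosome 1 (145992435 to 145996579, GRCh38, GENCODE release 44), had normalized counts of 539.8, 709.9 and 550.5 in the control libraries. With gag-pol it had 1298, 1395 and 1081, with gag 1266, 1307 and 1000.2, and with NC 863.4, 1180.3 and 797.8. Every PEG10 library lay above every control library, which 71 genes did (0.413% of those tested). The mean log2 fold change was 0.90 ± 0.09 (SE; 95% interval 0.72 to 1.09; edgeR adjusted p 2.57e-06), and it was smaller with NC, 0.65, than with gag-pol, 1.07, or gag, 0.99.

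*ARRDC4* (chromosome 15, 97960703 to 97973833, forward strand) differed more between replicate numbers than *TXNIP*. Its normalized counts were 1992, 3826 and 1717 in control, and 3669, 5652 and 3602 with gag-pol, 2991, 4474 and 2240 with gag, and 3731, 5729 and 3495 with NC. The second control library was above several PEG10 libraries, so the groups overlapped, yet each PEG10 library was above the control of its own number. The mean log2 fold change was 0.69 ± 0.08 (SE; adjusted p 1.76e-05), with 0.83 for gag-pol, 0.39 for gag and 0.83 for NC.

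The promoter stretches of this pair are shown because they hold the letters that MondoA and ChREBP recognise, the E-box CACGTG and a pair of E-box-like sites 5 bases apart, called a carbohydrate response element (each site being the E-box itself or CACGAG on either strand). Capitals mark those letters. The *TXNIP* stretch is at chr1:145996639-145996679 on the reverse strand, 100 to 60 bases before the start, and the *ARRDC4* stretch at chr15:97960481-97960510 on the forward strand, 222 to 193 bases before it (RefSeq, GRCh38.p14).
TXNIP: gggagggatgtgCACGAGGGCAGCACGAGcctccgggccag
ARRDC4: aaacggcctgtgCACGTGcacgccggagcc

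Of 35116 RefSeq promoters of 300 bases, 4 (0.011%) held the paired sites and 2548 (7.256%) an E-box on either strand. RefSeq promoters were found for 14 of the 20 higher genes and 27 of the 36 lower ones, with the E-box in 3 of the 14, *ARRDC4*, *AEN* and *LONRF3*, and in 1 of the 27, *ZSCAN18*; the paired sites were in *TXNIP* alone among these. In the list of 8 glucose-responsive MondoA and ChREBP targets, 4 genes rose and none fell, against 3.58% higher and 4.17% lower over all genes. The list's median log2 fold change was 0.22 against 0.00382 over all genes. It was chosen with earlier results of these data known, and 2 of the 4 are *TXNIP* and *ARRDC4*, described above. The other 2 that rose were *KLF10*, a zinc finger repressor (0.33 ± 0.07, SE; adjusted p 0.00783), and *RGS16*, which shortens G protein signalling (0.32 ± 0.07; adjusted p 0.00924). In the arrestin-domain family, 7 genes tested, *ARRDC3* fell while *TXNIP* and *ARRDC4* rose: it had 1709, 985.8 and 1385 normalized counts in control and a median of 613.5 (343.8 to 1457) in the PEG10 libraries, a log2 fold change of -1.06 ± 0.17 (SE; adjusted p 0.00639). Its groups overlapped, and each PEG10 library was below the control of its number.

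**Figure D1:**
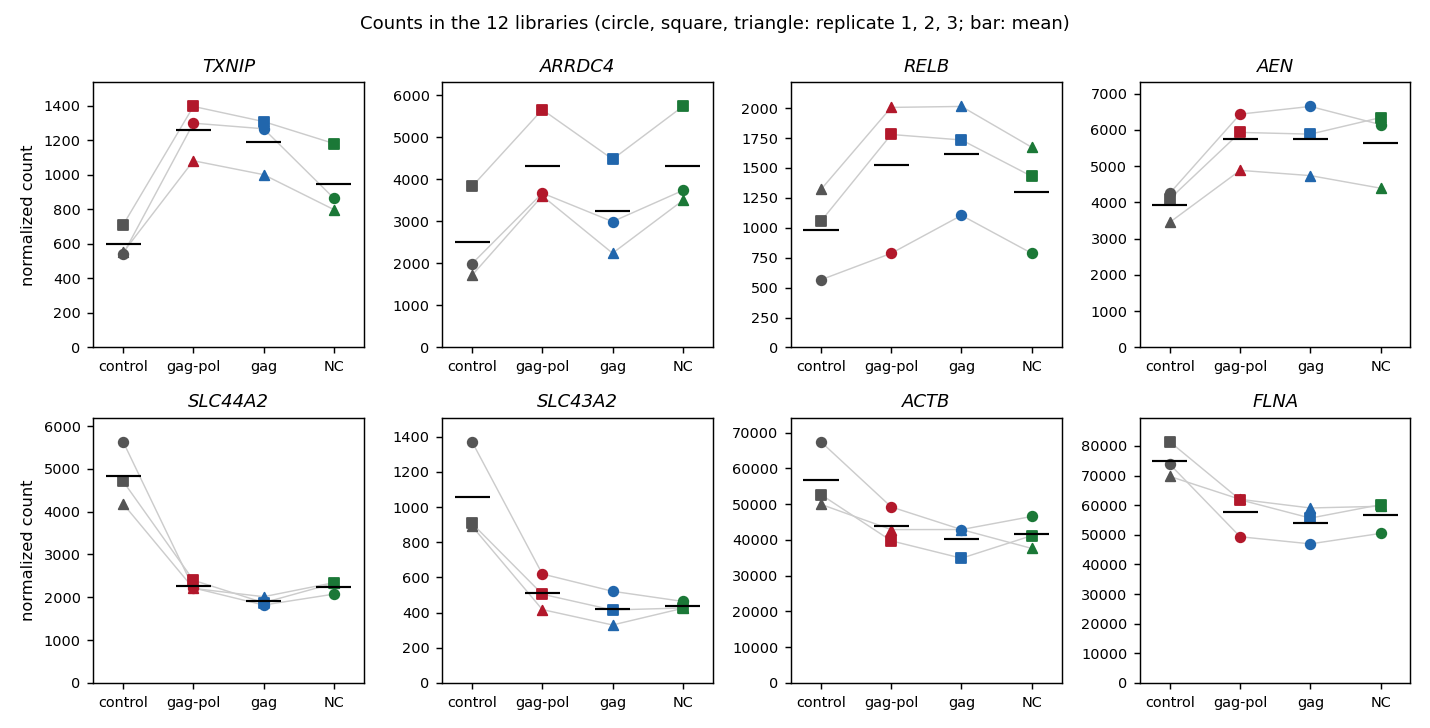
Normalized counts (y axis, from 0) of 8 genes in the 12 libraries, by group (x axis), with the replicate number as the symbol, grey lines joining libraries of one number and black bars at the group means. *TXNIP*, *AEN*, *SLC44A2*, *SLC43A2*, *ACTB* and *FLNA* have no control library within the range of the PEG10 libraries, while *ARRDC4* and *RELB* separate only within replicate numbers.

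Other genes that rose with every construct are given by what each is known to do. *AEN*, a p53-induced exonuclease, had 4258, 4102 and 3454 normalized counts in control and 4393 to 6648 in the PEG10 libraries, with a median of 5931. All 9 exceeded the highest control library, and the log2 fold changes with gag-pol, gag and NC were 0.54, 0.54 and 0.50, the narrowest range of the higher genes (mean 0.53 ± 0.06, SE; adjusted p 2.81e-05). *HRK*, a BH3-only protein that promotes apoptosis, and *GADD45A* were named after their values had been seen. *HRK* rose from 393.5 to 435.7 in control to 461.3 to 635.1 with PEG10, without overlap (0.49 ± 0.10; adjusted p 0.00578). *GADD45A*, a growth arrest and DNA damage gene, rose from 3086 to 4177 to 4455 to 6537 (0.49 ± 0.08; adjusted p 0.00186). These 3 genes are higher in every PEG10 library, by a factor of 1.41 to 1.44 on average.

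*RELB*, a subunit of NF-kappaB that acts in its non-canonical pathway, had 565.7, 1055 and 1320 normalized counts in control. It had 786.6, 1779 and 2006 with gag-pol, 1104, 1734 and 2014 with gag, and 786.5, 1430 and 1673 with NC. The groups overlapped through the replicate numbers, and within each number all PEG10 libraries were above control (log2 fold change 0.60 ± 0.08, SE; adjusted p 0.000186). Of 17 NF-kappaB targets tested, *RELB* alone rose and *CCL2*, a chemokine, fell (-1.21 ± 0.26; adjusted p 0.00696), with *CCL2* at 0.04 with gag. Those counts of 1 each way are near the 3.58% and 4.17% of all genes, and without the third control library 2 rose and none fell. *TRIB1*, a pseudokinase that brings proteins to the COP1 ubiquitin ligase, had 1707, 1741 and 1268 in control and 1784 to 3598 with PEG10, without overlap (0.66 ± 0.08; adjusted p 4.3e-05).

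The largest rise by fold among these 12 named genes was that of *FRMD1*, which encodes a FERM-domain protein. Its control libraries had 61.2, 305.2 and 244.1 normalized counts, and its PEG10 libraries 102.8 to 710.1 with a median of 544.9, so it overlapped between groups but was above control within each number (1.00 ± 0.14; adjusted p 0.000129). *C11orf96*, a gene of little-known function, rose by 0.85 ± 0.09 (adjusted p 2.57e-06) and *SH3RF2*, a ubiquitin ligase with SH3 domains, by 0.83 ± 0.16 (adjusted p 0.00385), both most with gag, at 1.17 and 1.22. *PTX3*, a secreted pattern recognition protein, rose by 0.67 ± 0.11, *NLRX1*, a mitochondrial member of the NOD-like receptors, by 0.54 ± 0.09 and *LONRF3*, a RING finger protein, by 0.50 ± 0.07, with adjusted p-values of 0.0013, 0.000667 and 0.000372. *FAM86FP* (0.82 ± 0.17; adjusted p 0.0054) is a pseudogene with near-identical copies, so reads may have been shared between them and its value is uncertain. *INHBA*, which encodes a subunit of activin, fell outside the limit on low counts and was named after its values were seen: its log2 fold change was 1.60 ± 0.33 (adjusted p 0.0054), from 16.6 to 24.0 normalized counts in control to 25.6 to 91.7 with PEG10.

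**Figure D2:**
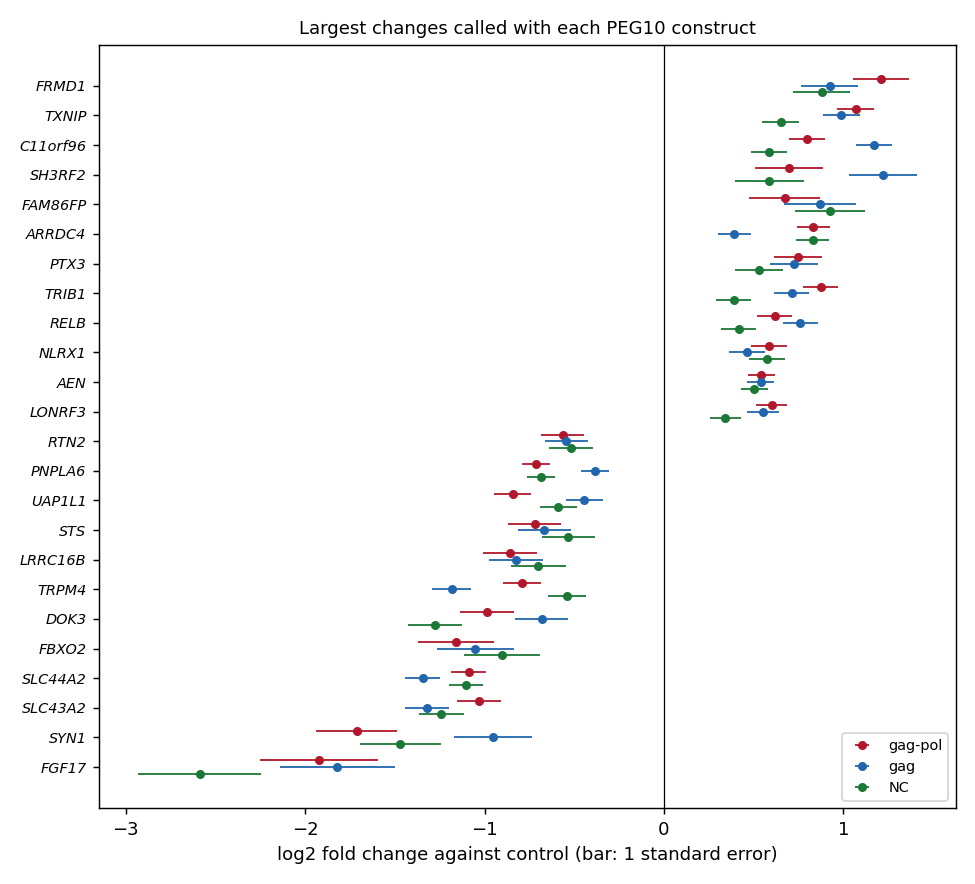
Log2 fold change against control (x axis) of the 12 largest rises and 12 largest falls among genes called with each construct (y axis), for gag-pol, gag and NC, with bars of 1 standard error. All 72 points lie on the side of their gene, which the choice of genes called with one sign requires. The 3 contrasts share the same 3 control libraries.

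On the lower side, the smallest p-values belonged to a pair of membrane transporters. *SLC44A2* (chromosome 19, 10602457 to 10644557, forward strand), a choline transporter-like protein, had 5631, 4707 and 4181 normalized counts in control. It had 2219, 2397 and 2207 with gag-pol, 1818, 1873 and 2013 with gag, and 2073, 2327 and 2341 with NC. All 9 PEG10 libraries were far below all 3 control libraries, a position shared by 70 genes (0.408%), and the PEG10 mean was 44.1% of control (log2 fold change -1.18 ± 0.07, SE; adjusted p 9.93e-10). *SLC43A2* (chromosome 17, 1569268 to 1628886, reverse strand), a transporter of large neutral amino acids, had 1371, 906.9 and 891.3 in control against 329.3 to 619.4 with PEG10 and a median of 426.0. It too did not overlap, at 43.6% of control (-1.20 ± 0.09; adjusted p 6.07e-08).

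Of 23 choline and amino acid transporters tested, 5 fell and none rose, against 4.17% lower and 3.58% higher over all genes, and the median of the list was -0.0305 against 0.00382. The other 3 were *SLC3A2*, the heavy chain shared by several amino acid exchangers, *SLC7A8*, a light chain that pairs with it, and *SLC43A3*. *SLC3A2* fell by 0.52 ± 0.09 on the log2 scale (adjusted p 0.00255), with -0.84 for gag-pol, -0.24 for gag and -0.49 for NC. *SLC7A8* fell by 0.36 ± 0.09 (adjusted p 0.0194) and *SLC43A3* by 0.58 ± 0.18 (adjusted p 0.0475), and each overlapped between the groups.

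*ACTB* and *FLNA* were lower with each construct. *ACTB*, cytoplasmic beta-actin, had 67460.3, 52691 and 49962 normalized counts in control, against 34885 to 49236 in the PEG10 libraries with a median of 42900. No PEG10 library reached the lowest control library, and *ACTB* was at 74.3% of control (-0.43 ± 0.07, SE; adjusted p 0.00106), with -0.36 for gag-pol, -0.49 for gag and -0.43 for NC. *FLNA*, the filamin that crosslinks actin filaments, had 73772, 81383 and 69702 in control and 46930.0 to 61966 with PEG10, again without overlap (-0.43 ± 0.07; adjusted p 0.000998). *ACTB* has many processed pseudogene copies, and how reads shared with them were counted is not stated.

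In the list of 21 genes for actin and targets of SRF and its cofactor MRTF, 6 fell and 1 rose, against 4.17% lower and 3.58% higher over all genes. The median was -0.12 against 0.00382 over all genes. The list was chosen with earlier results of these data known, and it holds *ACTB* and *FLNA*. Beside *ACTB* and *FLNA*, those that fell were *ACTG1*, gamma-actin (-0.27 ± 0.07; adjusted p 0.0296), *TPM4*, a tropomyosin (-0.34 ± 0.07; adjusted p 0.00346), *CNN2*, a calponin (-0.31 ± 0.07; adjusted p 0.0123), and *FILIP1L* (-0.68 ± 0.13; adjusted p 0.00473), the last at 0.0034 with gag. *TAGLN2*, a transgelin, rose by 0.26 ± 0.07 (adjusted p 0.0206). *SRF* itself was at 0.03, and 14 of the 21 did not pass the test. Other genes called lower with each construct also encode proteins that act on actin: *WDR1*, which helps cofilin to take filaments apart (-0.37 ± 0.07; adjusted p 0.00199), *LCP1*, an actin-bundling plastin (-0.36 ± 0.07; adjusted p 0.00199), and *LRRC16B*, which binds capping protein (-0.79 ± 0.12; adjusted p 0.000454). These 3 are not on the list, and *WDR1* and *LCP1* were named after their values had been seen. LifeAct binds actin, so lower actin genes with PEG10 and higher ones with the control plasmid cannot be told apart.

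**Figure D3:**
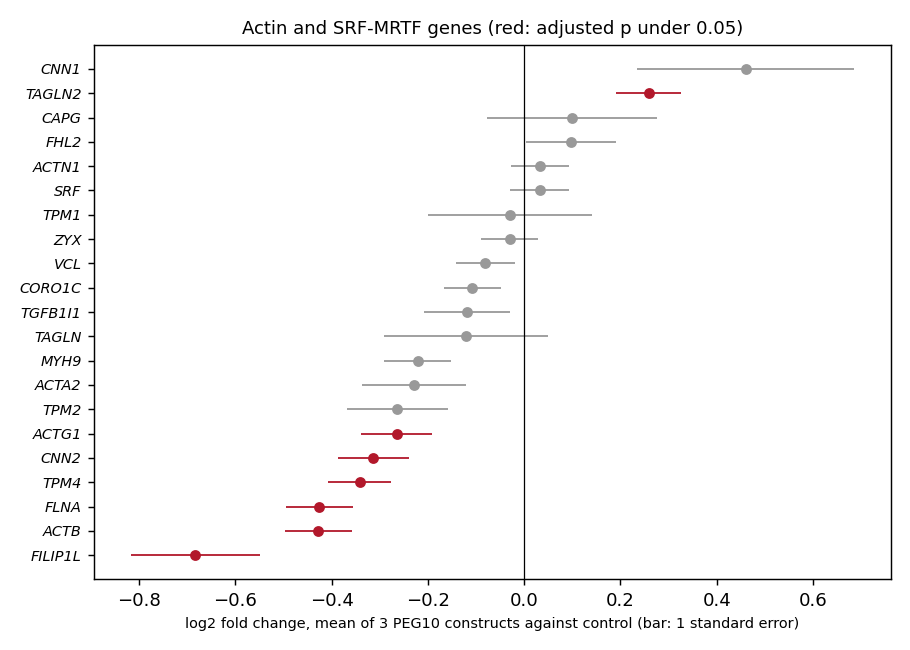
Log2 fold change of the mean of the 3 PEG10 constructs against control (x axis) for the 21 tested genes of the actin and SRF-MRTF list (y axis), with bars of 1 standard error and genes at an adjusted p under 0.05 in red. 6 red genes lie below 0, from *ACTG1* to *FILIP1L*, and 1, *TAGLN2*, above.

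The stretches below come from the promoters of *FLNA* and *ACTG1* and are shown because both hold a CArG box, the element that SRF binds (CC, then 6 bases that are A or T, then GG, in capitals). This motif was added after the values had been seen. The *FLNA* stretch lies at chrX:154374707-154374740 and the *ACTG1* stretch at chr17:81512872-81512905, both on the reverse strand and both 106 to 73 bases before the start.
FLNA: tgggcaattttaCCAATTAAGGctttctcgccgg
ACTG1: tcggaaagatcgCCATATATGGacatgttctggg

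A CArG box was in 454 of the 35116 promoters (1.293%) and in 1 of the 27 lower genes with a promoter, *FLNA*. The other motifs were as sparse. The cyclic AMP element (TGACGTCA; 1.848% of promoters) was in *SYN1*, the AP-1 site (TGACTCA on either strand; 4.949%) in *ARRDC4* and *SLC43A2*, and the heat shock element (0.49%) in *FRMD1*. The ATF4 composite site (TGATGCAAT; 0.236%) was in none of the 41 matched promoters.

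The largest falls by fold among the 36 genes were at low or moderate counts. *SYN1*, synapsin I, which coats synaptic vesicles, had 365.4, 118.0 and 296.7 normalized counts in control and 45.9 to 215.2 in the PEG10 libraries, with a median of 72.7. Within each replicate number the PEG10 libraries were below control, although the groups overlapped (-1.38 ± 0.17; adjusted p 4.17e-05). *FGF17*, a fibroblast growth factor, fell most among the 36 genes called with each construct, to 23.2% of control, but at low counts that differed widely between replicate numbers: 73.7, 134.9 and 525.7 in control and 6.04 to 224.3 with PEG10 (-2.11 ± 0.24; adjusted p 2.81e-05). *C5AR1*, between *FGF17* and *SYN1* by fold, lay outside the limit on low counts and was named after its values were seen. It had 94.5 to 98.5 normalized counts in control and 22.3 to 47.8 with PEG10, without overlap (-1.56 ± 0.26; adjusted p 0.00122). *FBXO2*, an F-box protein that recognises glycoproteins, fell by 1.04 ± 0.16 and *DOK3*, an adaptor of receptor signalling, by 0.98 ± 0.12, with adjusted p-values of 0.000741 and 2.81e-05.

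*TRPM4*, a cation channel that calcium opens, had 1073, 1352 and 1058 normalized counts in control and 423.1 to 919.0 with PEG10, without overlap (-0.84 ± 0.08; adjusted p 2.57e-06). Of 21 channels of the TRP and store-operated kinds tested, 3 fell and none rose, against 4.17% and 3.58% over all genes: *TRPM4*, *MCOLN1*, a channel of lysosomes (-0.55 ± 0.11; adjusted p 0.00625), and *TRPC1* (-0.44 ± 0.10; adjusted p 0.0124). From the rest of the 36 genes, *APOE* and *GRN* were named after their values had been seen. *APOE*, the lipid carrier apolipoprotein E, had 1961, 2323 and 4785 in control and 1355 to 3640 with PEG10, below control in 9 of 9 pairings (-0.52 ± 0.06; adjusted p 4.19e-05). *PNPLA6*, a lysophospholipase, fell by 0.60 ± 0.06 (adjusted p 4.12e-06), and *GRN*, which encodes progranulin, by 0.40 ± 0.07 (adjusted p 0.00104).

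Of the remaining named falls, *STS*, steroid sulfatase, went from 410.0 to 492.0 in control to 245.0 to 383.5 with PEG10 without overlap (-0.64 ± 0.12; adjusted p 0.00255). *RTN2*, a reticulon of the endoplasmic reticulum, fell by 0.54 ± 0.10 (adjusted p 0.00182), also without overlap. *UAP1L1*, related to an enzyme of amino sugar synthesis, fell by 0.63 ± 0.08 (adjusted p 0.000186), and *CDC42BPG*, a kinase downstream of CDC42, by 0.46 ± 0.09 (adjusted p 0.00325). Over all 56 genes, log2 fold changes ran from 0.35 to 1.60 among the 20 higher and from -2.11 to -0.31 among the 36 lower. Groups did not overlap for 7 of the 20 and 13 of the 36, against 0.413% above and 0.408% below control over all genes. All 56 were on one side of control in 9 of 9 pairings, as were 875 higher and 931 lower among all 17175 genes. Being called with each construct favours both, so these counts are not separate support.

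The other gene lists give the wider picture, and each count is to be read against 3.58% higher and 4.17% lower over all genes. Of 25 immediate early genes tested, 6 rose and none fell (median 0.23): *KLF6*, a zinc finger transcription factor (0.56 ± 0.10; adjusted p 0.00229), *FOSL1*, *ATF3*, *JUND*, *BTG2* and *KLF10*. Of 17 ERK feedback genes, 5 rose (median 0.15), with *PHLDA1* first (0.74 ± 0.13; adjusted p 0.00217) and then *DUSP1*, *SPRY1*, *DUSP4* and *DUSP7*, phosphatases and inhibitors that restrain the pathway. Some differed in size among the constructs: *ATF3* was at 0.27, 1.02 and 0.11 with gag-pol, gag and NC (edgeR adjusted p 0.00108 among constructs), and *KLF6* at 0.80, 0.69 and 0.19 (0.00443).

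Of 20 cytosolic heat shock genes, 4 rose and 2 fell. *HSPA1A*, inducible HSP70, had 3481, 3285 and 2108 normalized counts in control, 10686, 6500.2 and 4506 with gag-pol, 8593, 6395 and 3394 with gag, and 4323, 4327 and 2832 with NC. It overlapped between groups and exceeded control in 9 of 9 pairings (0.87 ± 0.11; adjusted p 0.00129). *HSPA1B* moved alongside (0.72 ± 0.11; adjusted p 0.00188), but the pair is nearly identical in sequence, so the reads of one cannot be kept apart from those of the other. *HSPD1* and *SERPINH1* also rose, at 0.25 and 0.29, and the co-chaperones *DNAJA1* and *DNAJB4* fell, at -0.27 and -0.43.

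Of 24 genes of the integrated stress response, 6 rose, *CEBPB* among them, and 2 fell, *CARS* and *NUPR1* (median 0.10). *TRIB3*, a pseudokinase induced by ATF4, rose by 0.37 ± 0.07 (adjusted p 0.00453) and *ATF3* by 0.47 ± 0.10 (adjusted p 0.015), while *NUPR1* fell by 0.44 ± 0.12 (adjusted p 0.0346). These counts turned on single libraries: without the first gag library, 2 of the 24 rose and 4 fell. Without the second control library 1 rose and 2 fell, and without the third 1 rose and none fell. Of 21 genes of the unfolded protein response of the endoplasmic reticulum, 1 rose, *HSP90B1*, and none fell. Of 21 p53 targets, 5 rose and 1 fell: *AEN*, *PHLDA3*, *BTG2*, *CDKN1A* and *TNFRSF10B* were higher, by 0.20 to 0.53, and *BAX*, which promotes apoptosis, was lower (-0.31 ± 0.09; adjusted p 0.0366). None of 19 NRF2 targets was called in edgeR's test, where 3 had an unadjusted p under 0.05, and none in limma-voom, while DESeq2 called 1 higher. With no filter on low counts edgeR called 3 higher, and without the second gag-pol library 1.

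Of 30 interferon-stimulated genes, 5 fell, 1 rose and the median was -0.32. *HERC5*, a ligase for the ubiquitin-like ISG15, fell with a like size in each construct, -0.37, -0.27 and -0.44 with gag-pol, gag and NC (mean -0.36 ± 0.07; adjusted p 0.00403). *DDX58*, the RNA sensor RIG-I, was at -1.03, -0.04 and -0.79, *IFIT1* at -1.07, 0.11 and -1.01, and *IFI44* at -2.11, -0.00259 and -1.18, so these 3 lay near control with gag. *IFI27* was lower with one sign for all 3 constructs. Its log2 fold change was -0.78 to -0.71 with 1 library left out, and its call was lost in 2 of those 12 fits. Without the third control library, none of the 30 was called in either direction and the median was 0.00406. *BST2*, which tethers budding virus particles to the cell surface, rose (0.49 ± 0.14; adjusted p 0.0316), with 0.00695 for gag.

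Of 26 axon guidance genes, 5 rose, *PLXNA2* among them, and 1 fell. *UNC5B*, a netrin receptor, was at 0.39, 0.12 and 0.47 with gag-pol, gag and NC, *PLXNA4*, a plexin, at 0.71, 0.13 and 0.83, and *SLIT3* at 0.70, -0.06 and 0.73. *SEMA6A* was more even at 0.32, 0.23 and 0.27 (mean 0.28 ± 0.06; adjusted p 0.0116), and *UNC5C* fell with each construct by sign (-0.39 ± 0.10; adjusted p 0.0233). Of 26 hypoxia and glycolysis genes 3 rose: *HK2*, *VEGFA* and *PDK1*, the kinase that holds back pyruvate dehydrogenase (0.42 ± 0.09; adjusted p 0.00629). Of 26 genes of sterol and fatty acid synthesis 2 rose, *HMGCS1* and *ACACA*, and of 16 YAP-TEAD targets *FJX1* and *WTIP* rose and *AJUBA* fell.

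**Figure D4:**
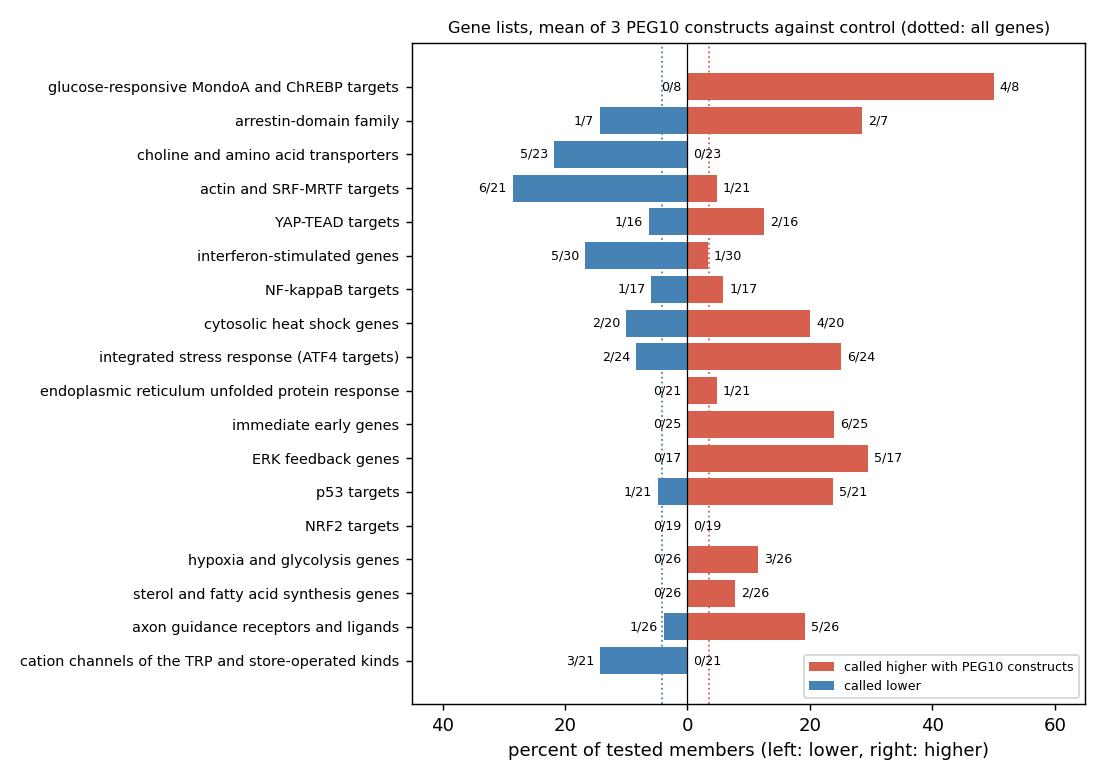
Share of the tested members of 18 gene lists called higher (right, red) or lower (left, blue) in the mean of the 3 PEG10 constructs against control, in percent, with the counts beside the bars and dotted lines at the shares over all genes, 3.58% and 4.17%. The MondoA and ChREBP list reaches 50% on the right, 4 of 8, and the actin list has its larger share on the left, 6 of 21.

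A common direction did not mean a common size. Among all genes, 2329 (13.6%) differed among the 3 constructs, and 382 of the 1265 genes with one sign did so, as did 11 of the 56 called with each. *C11orf96* rose more with gag than with NC, and NC minus gag was -0.59 on the log2 scale (95% interval -0.79 to -0.38; edgeR adjusted p 0.000766). *TRPM4* fell less with NC than with gag, with NC minus gag at 0.64 (0.42 to 0.87; adjusted p 0.000843). *TXNIP* rose less with NC than with gag, at -0.34 (-0.55 to -0.13; adjusted p 0.0254). *ARRDC4* rose less with gag than with gag-pol, and gag minus gag-pol was -0.44 (-0.63 to -0.25; adjusted p 0.00761), while NC minus gag-pol was -0.00182 (-0.19 to 0.18; adjusted p 0.998).

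At the other end stood *AEN* and *CDC42BPG*, the genes with the narrowest range over the constructs. For *AEN* the differences between pairs of constructs had intervals within -0.19 and 0.15, and for *CDC42BPG* within -0.22 and 0.27, so differences beyond those sizes lie outside the intervals. *FGF17* and *SYN1* had the widest ranges, 0.77 and 0.76, and for *FGF17* the intervals of the pairs reached from -1.51 to 0.82. For the other 45 of the 56 genes no difference among constructs was called, which does not show that they responded alike.

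Genes that fell were richer in G and C. Median GC content of the transcripts was 49.5% over all genes with a known value (96.2% of those tested), 51.4% among the 572 and 55.99% among the 693, and it was 61.5% among the 36 lower genes called with each construct. Of the 1652 genes with the highest GC content, from 62.5% up, 132 fell with one sign, against 44 of the 1657 with the lowest, up to 38.7%. With a trend on GC content and length taken out of each library, an alternative added after seeing the data, 53 of the 56 genes were still called with each construct.

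The number of genes depended strongly on single libraries. Without the third control library, 88 higher and 118 lower genes moved the same way, without the first 261 and 410, without the second 280 and 352, and without the first gag library 302 and 437. Of the 56 genes, 49 were called in the mean contrast without the third control library, and 53 to 56 without any other single library. A call with each construct was kept less often: by 14 of the 56 without the first gag library, 15 without the first control library, 16 without the second, 25 without the second gag library, 30 without the third control library and 34 to 47 without any other. The lists moved too: without the third control library, 3 of the 8 MondoA and ChREBP targets were called higher, 5 actin genes lower, 3 immediate early genes, 2 ERK feedback genes, 2 p53 targets and 1 heat shock gene higher, and no axon guidance gene in either direction. In that fit no gene of the hypoxia and glycolysis, sterol and fatty acid synthesis or YAP-TEAD lists was called, and 1 TRP or store-operated channel was lower. Of the 72 genes that the naming rule gave, 29 were called whichever single library was left out, among them *SLC44A2*, *SLC43A2*, *TXNIP*, *ARRDC4*, *AEN*, *ACTB* and *FLNA*. The other 43 lost the call in at least 1 of these 12 fits. It was lost in 10 for *ALB*, in 9 for *SLC43A3* and *VEGFA*, in 8 for *BAX*, *SPRY1*, *AJUBA* and *IFI44*, and in 7 for *FOSL1*. Without a block for replicate number, 2 genes were called at all, *SLC44A2* and *SLC43A2*.

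**Figure D5:**
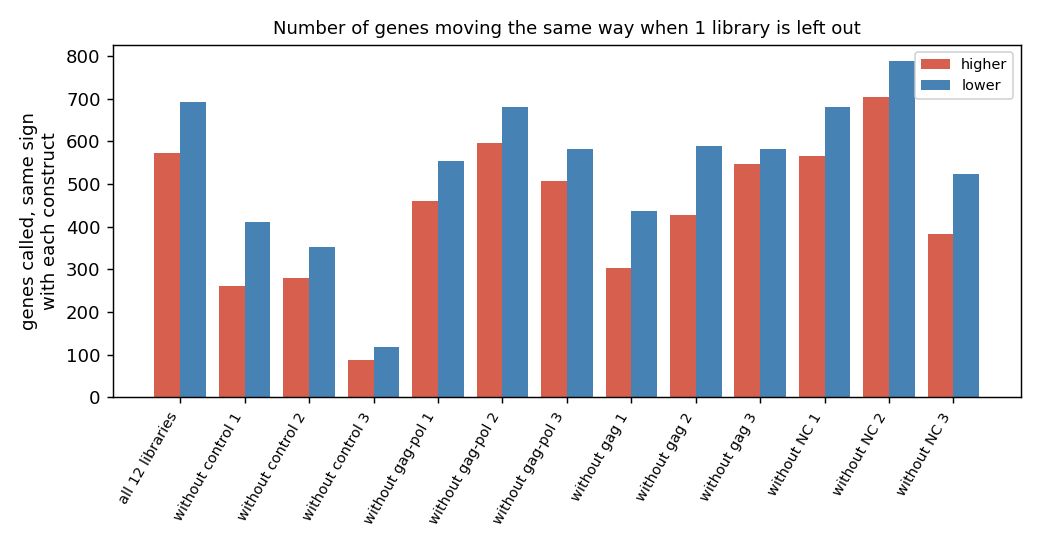
Number of genes called in the mean contrast with one sign for all 3 constructs (y axis, red higher, blue lower), with all 12 libraries and with each library left out (x axis). The lowest bars, 88 and 118, belong to the fit without the third control library, and the bars of all 12 libraries stand at 572 and 693.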

How the data were processed

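Poly(A) RNA was sequenced as read pairs from 12 libraries. Per the labels and the methods, the authors used STAR 2.7.3 for mapping to GRCh38, SAMtools 1.8 for sorting and featureCounts for counting. The deposited values are raw read counts for 26485 gene symbols, 3535 of them without a count. Strand setting, annotation release and the treatment of reads mapping to several places are not given in the sources used here, so antisense pairs and near-identical genes are uncertain. All sample columns were used.

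Counts were fitted with edgeR 4.0.16 (limma 3.58.1, R 4.3.3): TMM factors, a filter at a minimum count of 10 and total of 15, and a robust quasi-likelihood fit of all 12 libraries on construct plus replicate number, which leaves 6 residual degrees of freedom. Adjusted p-values are Benjamini-Hochberg values with a threshold of 0.05, and standard errors and 95% intervals are from the same fit. The common biological coefficient of variation was 10.7%. A normalized count is the count over its library's effective (TMM) size, times the average total of the 12 libraries. The fit was tested on simulated data. Figures were drawn with matplotlib 3.10.9 in Python 3.11.15.

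The replicate number was kept as a block because the study's own model has harvest date as a term, though nothing ties numbers to dates, and because same-numbered libraries deviated together from the group means: correlations ran from 0.138 to 0.539 for the 18 pairs with one number and from -0.498 to 0.072 for the 36 with different numbers. No 2 replicates agreed within sampling noise (chi-square per degree of freedom 32.1 to 106.6). That replicates were separate cultures rests on the study's description of them as biological replicates.

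The genes named were, among those called with each construct and with a mean log2 CPM of at least 1, the 12 largest rises and 12 largest falls, the 2 with the narrowest and the 2 with the widest range over constructs, *TXNIP*, and up to 3 called genes per direction and list with one sign for all constructs. Other called members of the lists and of the 56 genes are named too, a choice made after seeing their values. The constructs compared, the gene lists and the tests were chosen with earlier results of these data known. Alternatives were DESeq2 1.42.0, limma-voom, upper-quartile and RLE factors, other filters, *PEG10* left out, no replicate block, no robust estimation, means of 2 constructs, stricter thresholds, each library or number left out and, added later, a GC and length trend. A withheld item is not reported here.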

Additional observations from a re-analysis of the deposited data

Results flagged for a closer look

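Of the 56 genes called with each construct in one direction, 11 differed in size among the 3 constructs in a test of that difference with 2 degrees of freedom. The adjusted p-values of edgeR's quasi-likelihood test were 0.00188 for *C11orf96*, 0.00232 for *TRPM4*, 0.00376 for *ARRDC4*, 0.00569 for *TRIB1* and 0.00969 for *PNPLA6*. They were 0.0168 for *TXNIP*, 0.0295 for *GADD45A*, 0.0302 for *DOK3*, 0.0362 for *UAP1L1*, 0.0384 for *SH3RF2* and, just under the threshold before rounding, 0.05 for *RELB*.

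The construct with the smallest effect was not the same one throughout. By the estimates alone, it was NC for *TXNIP*, *TRIB1*, *C11orf96*, *SH3RF2*, *RELB* and *TRPM4*, gag for *ARRDC4*, *PNPLA6*, *UAP1L1* and *DOK3*, and gag-pol for *GADD45A*. Only for *TRIB1*, *ARRDC4* and *PNPLA6* was that construct called different from both others in the pairwise contrasts. For *GADD45A*, NC minus gag-pol was 0.03 (edgeR adjusted p 0.948), so gag-pol and NC were not ranked by the test. In the order gag-pol, gag, NC, *DOK3* was at -0.99, -0.68 and -1.28 (log2 fold change), *GADD45A* at 0.36, 0.72 and 0.40, and *UAP1L1* at -0.84, -0.44 and -0.59.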

How the results depend on the processing

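None of the 72 genes that the naming rule gave changed direction under the alternatives run; the other genes named were not refitted one by one. The paired structure mattered most: with no replicate block, 2 genes were called in the mean contrast (0 higher, 2 lower; 1004 at an unadjusted p under 0.05), 0 and 2 moved the same way, 0 and 1 were called with each construct and 0 differed among constructs in edgeR's test, since variation between replicate numbers then counts as error. The other means of 2 constructs gave 887 genes for gag-pol and gag (463 lower), 2826 for gag-pol and NC (1430 higher, 1396 lower) and 325 for gag and NC (128 and 197). At an adjusted p under 0.01, 347 genes were called (120 and 227), 119 and 225 the same way, 5 and 8 with each construct and 770 among constructs. With a log2 fold change of 0.5 or more in size, 347 were called (108 and 239), 106 and 230 the same way and 8 and 11 with each. DESeq2 called 34 and 71 with each construct and the fit without a filter 34 and 57; the cause was not tested.

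Over fits that leave out 1 library or 1 replicate number, the mean contrast called 209 to 1586 genes (81 to 767 higher, 119 to 819 lower). Genes moving the same way numbered 79 to 703 higher and 118 to 787 lower, those called with each construct 4 to 22 and 3 to 36, and those differing among constructs 100 to 3211. Without the first replicate number 39 of the 56 genes were called in the mean contrast. *ACTB* and *FLNA* were then not called. All 56 were called in the mean contrast with DESeq2, limma-voom, RLE and upper-quartile factors, and of them 54, 39, 55 and 54 were called with each construct.

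With 3 control libraries, shared by every contrast, and 6 residual degrees of freedom, small changes are decided by single libraries. Levels of genes near the filter, such as *INHBA* and *FGF17*, rest on few counts, and shares of similar copies cannot be separated.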
